A study of Mus musculus with 4 samples.

Results

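The genes described here were 28 genes of cholesterol synthesis, uptake and trafficking, chosen by name from the 24473 genes with deposited FPKM values (fragments per kilobase of gene, scaled to sequencing depth). All 28 had a row in the deposited table and all 28 passed the filter on low counts, among 15733 genes tested. They fell into 8 genes of the mevalonate steps, 12 of the later sterol steps, 4 regulators and 4 genes of trafficking and storage. RNA was sequenced from BV-2, a mouse microglial cell line. There were 2 SIX2 knockdown libraries (titled sh s1 and sh s2) and 2 control libraries (sh c1 and sh c2, genotype WT). Cells of both groups had received lipopolysaccharide (LPS), a bacterial product that activates macrophages, at 100 ng/mL for 24 h, so no library shows the pathway without LPS. Both titles carry the prefix sh, and the labels do not say what the control cells received or whether libraries of a group came from separate cultures, and p-values here thus reflect library-to-library spread alone, which could be technical.

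Cholesterol is built from acetyl-CoA. The mevalonate arm makes farnesyl diphosphate, which also feeds protein prenylation, ubiquinone and dolichol, and the later steps join farnesyl units to squalene, close the ring and trim lanosterol to cholesterol. The transcription factor SREBP-2 (gene Srebf2) drives most of these genes together: when sterols are scarce the escort protein SCAP carries it from the endoplasmic reticulum to the Golgi, and INSIG proteins hold it back when sterols are plentiful. Macrophages and microglia also take up lipoprotein cholesterol, release it from lysosomes through NPC1 and NPC2, and store it as esters made by SOAT1.

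The promoters of the pathway are shown first, because genes that SREBP-2 drives commonly carry a CCAAT box, bound by the SREBP partner NF-Y, near their start. RefSeq promoter windows on GRCm38.p6 (250 bases before to 50 after each start) were found for 23 of the 28 genes. The others were Fdps, Fdft1, Sqle, Stard4 and Npc1. The letters CCAAT, on either strand and counted with any overlap, were found for 21 of the 23 genes (91.3%), against 43.3% of tested genes with a window and 41.1% of all genes with one. At least 2 copies were found for 12 of the 23, or 52.2%, against 17.0% of tested genes. The sterol regulatory element letters TCACNCCAC were found in 1 of the 23 (Hmgcs1), against 1.37% of tested genes. A match of letters is a description of the sequence and not a bound site. The 5 windows below hold the 200 bases before the start of the genes of the mevalonate arm on which the comparison turns, 5′ to 3′ on the gene's strand. Capitals mark CCAAT or its complement ATTGG, and in Hmgcs1 also TCACCCCAC. The first 3 genes were lower in the knockdown libraries without passing the test, and the last 2 differed little.
Mvk, chr5:114444069-114444268, plus strand: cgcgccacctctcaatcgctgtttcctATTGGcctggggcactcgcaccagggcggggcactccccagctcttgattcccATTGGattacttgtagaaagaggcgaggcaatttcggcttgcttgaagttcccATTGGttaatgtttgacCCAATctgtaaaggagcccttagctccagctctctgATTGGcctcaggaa
Pmvk, chr3:89454341-89454540, plus strand: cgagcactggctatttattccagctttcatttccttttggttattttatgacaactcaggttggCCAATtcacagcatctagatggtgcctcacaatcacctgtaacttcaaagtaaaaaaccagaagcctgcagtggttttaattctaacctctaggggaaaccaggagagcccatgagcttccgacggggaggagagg
Mvd, chr8:122443423-122443622, minus strand: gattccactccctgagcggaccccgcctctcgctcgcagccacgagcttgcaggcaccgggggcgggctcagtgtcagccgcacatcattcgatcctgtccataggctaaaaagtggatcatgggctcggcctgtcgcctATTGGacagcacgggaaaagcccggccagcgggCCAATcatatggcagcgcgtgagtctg
Hmgcs1, chr13:119690151-119690350, plus strand: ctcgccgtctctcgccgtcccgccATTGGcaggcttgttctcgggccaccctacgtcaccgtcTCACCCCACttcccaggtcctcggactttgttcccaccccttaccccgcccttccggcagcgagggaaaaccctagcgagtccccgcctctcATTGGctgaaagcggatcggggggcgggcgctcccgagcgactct
Idi1, chr13:8885406-8885605, plus strand: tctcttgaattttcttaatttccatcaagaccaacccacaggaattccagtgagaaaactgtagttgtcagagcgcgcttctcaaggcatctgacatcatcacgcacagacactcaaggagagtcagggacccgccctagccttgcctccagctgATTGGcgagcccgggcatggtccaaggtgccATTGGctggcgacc

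These windows held 5 copies for Mvk, 1 for Pmvk and 2 each for Mvd, Hmgcs1 and Idi1. Copies were thus present in each of these genes, none of which passed the test. Hmgcs1 had a log2 fold change of -0.12 and Idi1 of 0.07. The 2 genes with a window and no copy were Acat2 and Scap.

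Each knockdown library held 74.7 or 64.3 M estimated counts and each control library 75.7 or 61.0 M, and 1 sequenced fragment was worth about 4 counts. Six2, the targeted gene, had a count of 0 in all 4 libraries, which allows up to 12 counts (0.159 to 0.197 CPM, counts scaled to library size), so the knockdown could not be checked on its mRNA. Of 10 macrophage and microglia markers, 8 had a mean of at least 1 FPKM, with Cd68 at 463 and 443 FPKM in knockdown and 468 and 485 FPKM in control libraries. Cx3cr1 was under 1 FPKM, and P2ry12 had a count of 0 in both knockdown libraries and 24 and 4 counts in control libraries. Csf1r and Aif1, a growth factor receptor and an activation marker, fell in the knockdown (log2 fold changes -0.48 and -1.04, edgeR adjusted p = 0.0426 and 0.0440), calls that were lost without the robust option (0.102 and 0.101) and by limma-voom (0.0664 and 0.0742). Tmem119, a microglial membrane protein of the same list chosen after its values were seen, had 5.69 and 4.67 FPKM in knockdown and 10.2 and 8.83 FPKM in control libraries, with a log2 fold change of -0.85 ± 0.15 (SE, edgeR adjusted p = 0.0751). The other tested markers of the list differed less or were uncertain. Their log2 fold changes were 0.05 for Ptprc, -0.08 for Itgam, -0.04 for Cd68, -0.02 for Tyrobp and -0.14 for Fcer1g. Cx3cr1 had 0.41 ± 0.87 (SE). The summed level of the 10 markers was 1199 and 1180 FPKM in knockdown and 1259 and 1319 FPKM in control libraries. Oligodendrocytes are a rich source of cholesterol enzymes in brain, and their 5 markers summed to 1.39 and 0.0444 FPKM in knockdown and 2.55 and 2.25 FPKM in control libraries, with Mog, Mag and Mobp at 0 in knockdown replicate 2. The 5 neuron markers found summed to 0.367 and 0 FPKM against 0.869 and 0.696 FPKM, the 4 astrocyte markers to 0.183 and 0.106 against 0.432 and 0.342 FPKM, and the 4 fibroblast markers to 0.0301 and 0.00872 against 0.0707 and 0.0621 FPKM. These trace sums were thus lower in both knockdown libraries, but several of the counts behind them were under the floor of 12. Single genes did not all follow: Mog, Col1a2, Aldh1l1 and Rbfox3 each had a knockdown library above both controls. The part of these traces in the results was not tested.

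Nearly the whole synthesis pathway was expressed in these cells, and 27 of the 28 genes had a mean of at least 5 FPKM. The most abundant were Npc2, the lysosomal cholesterol carrier, with a mean of 71.9 FPKM over the 4 libraries, and Fdps, farnesyl diphosphate synthase, with 65.2 FPKM. Insig1 followed with 47.5 and Mvd with 45.2 FPKM. Against the 10862 genes with a mean of at least 1 FPKM, Npc2 lay above 92.8% of them and Fdps above 91.9%. The median of the mevalonate genes was 25.2 FPKM, of the later sterol genes 13.6, of the regulators 24.4 and of the trafficking genes 19.4 FPKM. The exception was Tm7sf2, with a mean of 0.933 FPKM. Lbr, which encodes the other enzyme with sterol C14 reductase activity beside its role as a nuclear lamina receptor, had a mean of 24.3 FPKM. Lbr was 21.2 to 31.6 times as abundant as Tm7sf2 within single libraries.

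**Figure D1:**
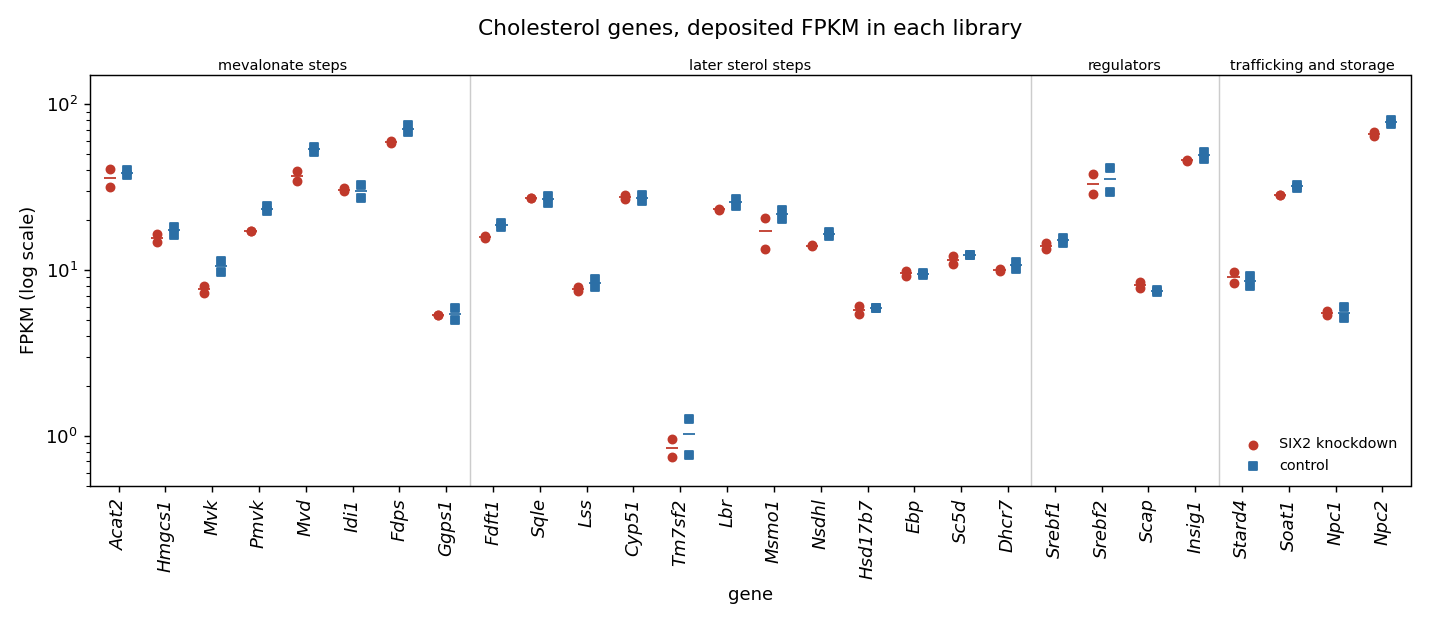
Deposited FPKM (log axis) of the 28 genes in pathway order; each point is 1 library, SIX2 knockdown as circles on the left and control as squares on the right, and short lines are group means. Tm7sf2 lies near 1 FPKM in all 4 libraries, all other genes at 4.97 FPKM or more, and Mvk, Pmvk and Mvd have both knockdown points below both control points.

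Among the last steps, Dhcr7, a sterol reductase, had 10.1 and 9.79 FPKM in knockdown and 10.2 and 11.1 FPKM in control libraries. Its knockdown libraries were both below the controls in FPKM, by little, and overlapped them in TMM-scaled CPM. Sc5d, Ebp and Hsd17b7, which act shortly before, had means of 11.9, 9.51 and 5.84 FPKM over the 4 libraries.

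Knockdown was then set against control, the one comparison that the labels allow. None of the 28 genes passed a Benjamini-Hochberg adjusted p of 0.05 in edgeR's quasi-likelihood test over all genes, where 0.953% of tested genes did (0.407% higher and 0.547% lower in the knockdown). The consecutive ATP-using kinases and decarboxylase of the mevalonate arm, Mvk, Pmvk and Mvd, were lower by the fit in knockdown libraries, with percent changes of -25.3% to -29.0%, and they had the 3 largest fold changes in size of the 28. At an unadjusted p of 0.05, 6 genes were lower in the knockdown, against 6.70% of tested genes, and 0 were higher, against 7.52%. The 6 were Mvk, Pmvk, Mvd, Fdps, Fdft1 and Npc2. DESeq2 called 2 of the 28, Mvd and Pmvk, where it called 5.09% of all genes. Both limma-voom and limma on log2 FPKM called 0 of the 28, where they called only 65 and 3 among all genes. Without a filter on low counts edgeR called 1, Mvd, where 1.30% of genes were called. In bulk RNA, fewer cells of a kind and less RNA per cell cannot be told apart.

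The fitted log2 fold changes of the 28 genes ran from -0.49 to 0.16 with a median of -0.07, against -0.01 over all tested genes. Of the 28, 20 lay below 0 (51.1% of tested genes did). On TMM-scaled CPM, 9 genes had both knockdown libraries below both control libraries and 1, Scap, had both above. Among tested genes, 23.8% lay on each side. The 3 beyond those at an unadjusted p of 0.05 were Nsdhl, Lbr and Soat1. On the FPKM scale, which lacks the TMM factors, 13 of the 28 had both knockdown libraries below, against 27.5% of tested genes.

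**Figure D2:**
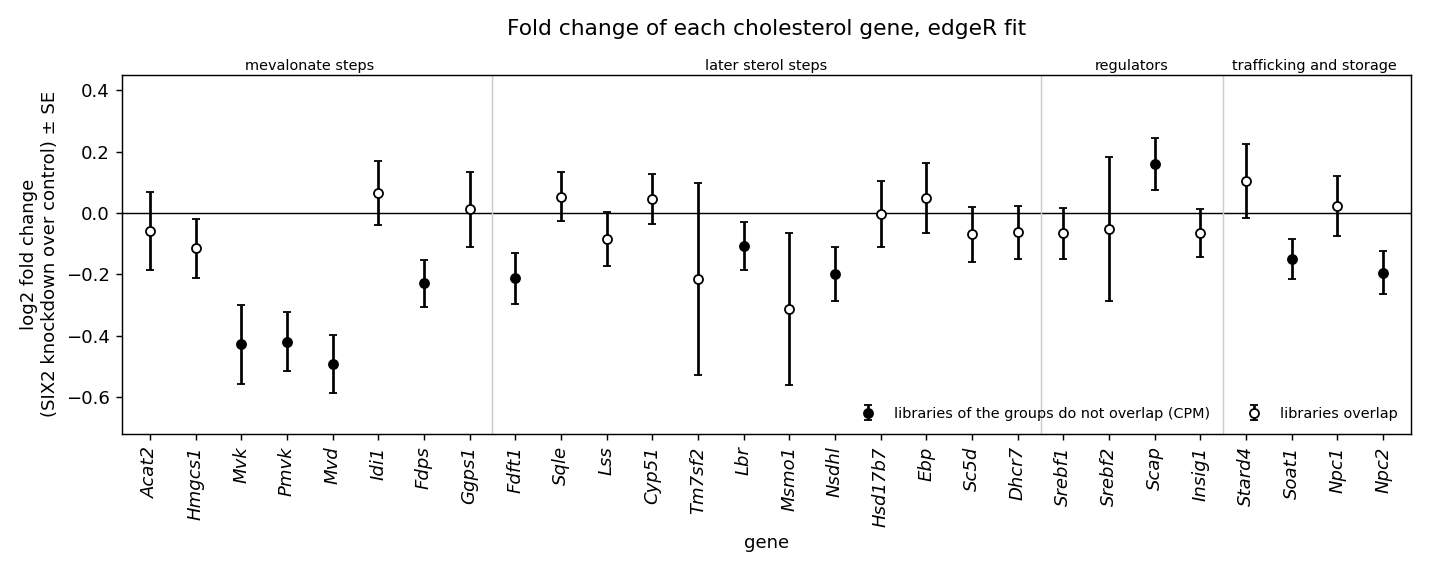
log2 fold change (SIX2 knockdown over control) with SE from the edgeR fit, in pathway order; filled points mark genes whose knockdown and control libraries do not overlap on the CPM scale, open points those that do. Mvk, Pmvk and Mvd lie between -0.42 and -0.49 while Idi1 and Ggps1 in the same arm lie near 0, and Msmo1, Tm7sf2 and Srebf2 have the widest errors.

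In the mevalonate arm the genes with the largest fold changes in size are given first. Mvd, mevalonate diphosphate decarboxylase (ENSMUSG00000006517, chromosome 8, 122433601 to 122443422, minus strand, GRCm38), had 39.4 and 34.6 FPKM in the knockdown libraries and 55.2 and 51.5 FPKM in the control libraries. Both knockdown libraries were below both controls. The fitted log2 fold change was -0.49 ± 0.10 (SE, adjusted p = 0.0886 by edgeR), the lowest p of the 28. Pmvk, phosphomevalonate kinase (chromosome 3, 89454541 to 89469013, plus strand), had 17.1 and 17.1 FPKM in knockdown and 22.7 and 24.1 FPKM in control libraries. The replicates lay close together in each group and the groups did not overlap. Its log2 fold change was -0.42 ± 0.10 (SE, adjusted p = 0.127 by edgeR).

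Mvk, mevalonate kinase (chromosome 5, 114444269 to 114460591, plus strand), had 8.05 and 7.25 FPKM in knockdown and 11.3 and 9.75 FPKM in control libraries. The groups did not overlap, with control replicate 2 the nearer of the controls. Its log2 fold change was -0.43 ± 0.13 (SE, adjusted p = 0.218 by edgeR). Mvk starts 209 bases from Mmab, a cobalamin enzyme gene on the opposite strand, and the Mvk promoter printed above fills most of the stretch between the starts. Mmab, looked at after its values were seen, had 5.92 and 5.40 FPKM in knockdown and 6.20 and 5.05 FPKM in control libraries, with a log2 fold change of 0.04 ± 0.14 (SE). Its groups overlapped, and the difference between the neighbours was not tested.

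Fdps (chromosome 3, minus strand), the enzyme at the branch point to prenylation, was the most abundant mevalonate gene. It had 58.2 and 60.2 FPKM in knockdown and 74.4 and 67.8 FPKM in control libraries. Knockdown and control did not overlap. At log2, the fold change was -0.23 ± 0.08 (SE, adjusted p = 0.255 by edgeR). It overlaps the gene model Gm43738 on the same strand, which had 0 and 95 counts in knockdown and 0 counts in both control libraries, against 18112 to 26415 counts for Fdps.

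The other mevalonate genes differed less. Acat2, the cytosolic thiolase that makes acetoacetyl-CoA, had a log2 fold change of -0.06 ± 0.13 (SE), and its knockdown libraries differed from each other, at 40.6 and 31.5 FPKM against 37.1 and 39.9 FPKM in control libraries. Without knockdown replicate 2 its value was 0.11. Hmgcs1, which makes HMG-CoA, had -0.12 ± 0.10. Idi1, isopentenyl diphosphate isomerase, had 30.0 and 31.0 FPKM in knockdown and 32.5 and 27.2 FPKM in control libraries, so the controls lay on either side, with a log2 fold change of 0.07 ± 0.10 (SE). Ggps1, which makes geranylgeranyl diphosphate for prenylation and was the least abundant of the arm, had 5.38 and 5.31 FPKM against 4.97 and 5.90 FPKM. Its log2 fold change was 0.01 ± 0.12 (SE), and the groups overlapped.

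Among the 12 later sterol genes, 1 was lower at an unadjusted p of 0.05, against 6.70% of all tested genes. This was Fdft1, squalene synthase (chromosome 14, minus strand), the first step committed to sterols. It had 15.5 and 16.1 FPKM in knockdown and 19.3 and 18.2 FPKM in control libraries. The groups did not overlap, and its log2 fold change was -0.21 ± 0.08 (SE, adjusted p = 0.316 by edgeR). Fdft1 overlaps the abundant cathepsin gene Ctsb on the opposite strand, and no source used here states whether strand was used in counting. Ctsb had 124887 and 108332 counts in knockdown and 131946 and 104823 counts in control libraries.

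Nsdhl, a sterol C4 decarboxylase on the X chromosome, had 14.1 and 13.9 FPKM in knockdown and 16.8 and 16.04 FPKM in control libraries. The groups did not overlap, and its log2 fold change was -0.20 ± 0.09 (SE, adjusted p = 0.386 by edgeR). Lbr had 23.1 and 23.2 FPKM against 24.3 and 26.8 FPKM, also without overlap, with a log2 fold change of -0.11 ± 0.08 (SE).

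Msmo1, the C4-methylsterol oxidase, had the largest fold change of the later genes in size, and it rested on 1 library. It had 13.4 and 20.7 FPKM in knockdown and 20.4 and 23.1 FPKM in control libraries. Knockdown replicate 1 was the low one, and knockdown replicate 2 lay between the controls. The log2 fold change was -0.31 ± 0.25 (SE, adjusted p = 0.671 by edgeR), and -0.04 without knockdown replicate 1. Tm7sf2 had 0.741 and 0.956 FPKM in knockdown and 0.769 and 1.27 FPKM in control libraries. The groups overlapped, and its log2 fold change was -0.22 ± 0.31 (SE). Tm7sf2 overlaps Vps51 on the same strand, whose counts were 4349 to 5901 a library against 277 to 381 for Tm7sf2, so how reads were split makes its level uncertain.

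The remaining later genes overlapped between groups in TMM-scaled CPM, while in FPKM Lss, Sc5d and Dhcr7 had both knockdown libraries below both controls. Cyp51, lanosterol demethylase and the most abundant of them, had 26.6 and 28.4 FPKM in knockdown and 26.2 and 28.4 FPKM in control libraries. Sqle, squalene epoxidase, a rate-controlling step, had a log2 fold change of 0.05 ± 0.08 (SE), and Lss, which closes the sterol ring, -0.09 ± 0.09. Hsd17b7 had -0.00 ± 0.11, Ebp 0.05 ± 0.11, Sc5d -0.07 ± 0.09 and Dhcr7 -0.06 ± 0.09 on the same scale.

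The mevalonate steps were then compared with the later sterol steps. Of the 8 mevalonate genes, 4 reached an unadjusted p of 0.05, all lower in the knockdown, against 1 of the 12 later genes. Over all tested genes, 6.70% were lower at that threshold. The median log2 fold change was -0.17 for the mevalonate genes and -0.08 for the later genes, a difference of -0.10, beside -0.01 over all tested genes. The mevalonate median was below the later one in all 15 alternative fits, by 0.08 to 0.16, but these fits reuse the same 4 libraries. The medians were not tested against each other. Mvk, Pmvk and Mvd were singled out because their fitted values were the lowest of the 28. The median of the other 5 mevalonate genes was -0.06, a value that leaving out the lowest genes had to bring nearer to 0. Without the entry step Acat2 and the branch gene Ggps1, the median of the 6 core genes was -0.33.

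Summed levels per library were set side by side. All 8 mevalonate genes together had 213 and 203 FPKM in knockdown and 255 and 244 FPKM in control libraries. Mvk, Pmvk and Mvd together had 64.5 and 58.9 FPKM in knockdown and 89.2 and 85.4 FPKM in control libraries. The 12 later genes together had 165 and 175 FPKM in knockdown and 182 and 186 FPKM in control libraries. The sum of the 8 mevalonate genes over that of the 12 later genes was 1.30 and 1.16 in knockdown and 1.40 and 1.31 in control libraries. Both knockdown ratios were below both control ratios, with knockdown replicate 1 close to control replicate 2. For Mvk, Pmvk and Mvd alone the ratio was 0.391 and 0.337 in knockdown and 0.490 and 0.458 in control libraries, and for the other 5 it was 0.904 and 0.826 in knockdown and 0.907 and 0.853 in control libraries. These last values describe a split made after the fold changes were seen, so the wider gap of the first set follows from the choice of genes.

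**Figure D3:**
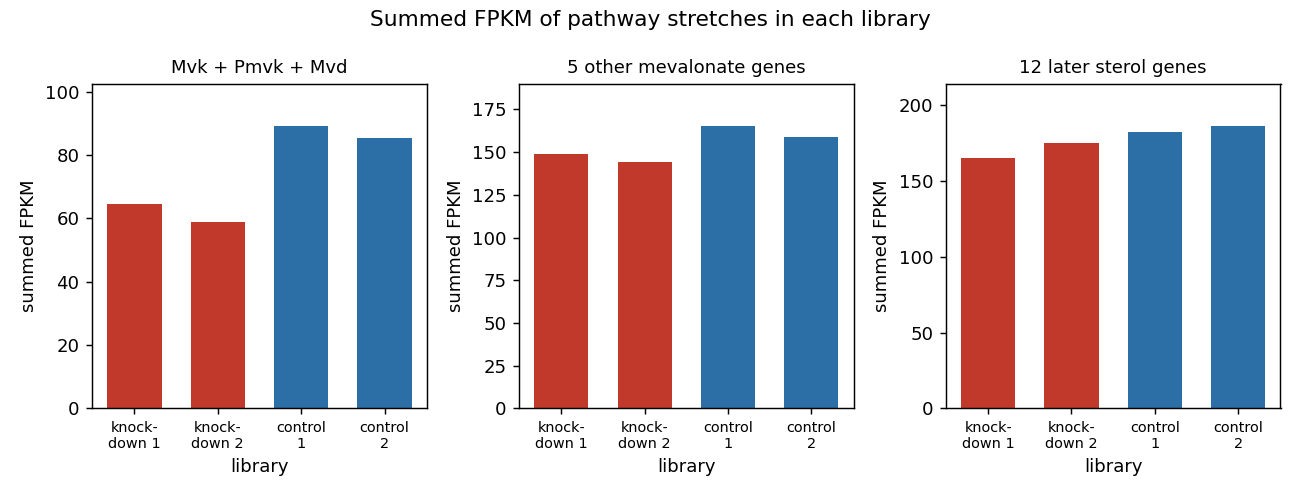
Summed FPKM per library of Mvk, Pmvk and Mvd (left), the other 5 mevalonate genes (middle) and the 12 later sterol genes (right); bars are single libraries, SIX2 knockdown in red on the left and control in blue on the right. The left panel shows 64.5 and 58.9 FPKM in knockdown and 89.2 and 85.4 FPKM in control libraries. These 3 genes were split off after their fold changes were seen.

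The regulators gave no call. Srebf2, which encodes SREBP-2, varied between libraries of the same group, with 37.7 and 28.6 FPKM in knockdown and 29.4 and 41.1 FPKM in control libraries. Knockdown replicate 1 and control replicate 2 were the high ones. Its log2 fold change was -0.05 ± 0.24 (SE), 0.13 without knockdown replicate 2 and 0.20 without control replicate 2, so no direction can be given. Srebf1, which encodes SREBP-1 and leans towards fatty acid synthesis, had a log2 fold change of -0.07 ± 0.08 (SE). Insig1, an SREBP-2 target as well as its brake, had 45.7 and 46.03 FPKM in knockdown and 46.6 and 51.7 FPKM in control libraries. Its log2 fold change was -0.07 ± 0.08 (SE), and its groups overlapped once TMM-scaled. Scap had 8.48 and 7.81 FPKM in knockdown and 7.36 and 7.58 FPKM in control libraries. It was the one gene of the 28 with both knockdown libraries above both controls, at a log2 fold change of 0.16 ± 0.09 (SE, adjusted p = 0.474 by edgeR).

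Of the 4 trafficking and storage genes, none passed and Npc2 and Soat1 had both knockdown libraries below both controls. On TMM-scaled CPM, 23.8% of all tested genes did so. Npc2 (chromosome 12, 84754562 to 84773152, minus strand) had 64.3 and 68.0 FPKM in knockdown and 75.4 and 80.0 FPKM in control libraries. Both knockdown values were below both control values. The log2 fold change was -0.20 ± 0.07 (SE, adjusted p = 0.277 by edgeR). Npc1, the membrane protein to which NPC2 hands its cholesterol, had 5.33 and 5.63 FPKM in knockdown and 5.12 and 5.94 FPKM in control libraries, with overlap and a log2 fold change of 0.02 ± 0.10 (SE). Npc2 was 12.1 to 14.7 times as abundant as Npc1 within single libraries. Soat1, the enzyme that esterifies cholesterol for storage, had 28.2 and 28.2 FPKM in knockdown and 31.4 and 32.7 FPKM in control libraries. The groups did not overlap, and its log2 fold change was -0.15 ± 0.06 (SE, adjusted p = 0.363 by edgeR). Stard4, a cytosolic sterol carrier and SREBP-2 target, had 0.10 ± 0.12, with overlap.

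Among 71 further genes of sterol and lipid handling, 66 were tested and 2 passed, 1 in each direction. Over all tested genes 0.953% passed. Both were fatty acid targets of SREBP, a list with 13 tested genes. Scd2, a stearoyl-CoA desaturase with 81.1 to 690 times the FPKM of Scd1 within single libraries, fell, with a log2 fold change of -0.45 ± 0.07 (edgeR adjusted p = 0.0490). It had 76.0 and 71.9 FPKM in knockdown and 99.4 and 108 FPKM in control libraries, with no overlap. Me1, the malic enzyme that supplies NADPH for lipid synthesis, rose, with a log2 fold change of 0.67 ± 0.10 (edgeR adjusted p = 0.0475). It had 9.87 and 10.7 FPKM in knockdown and 6.76 and 6.52 FPKM in control libraries, also with no overlap. Both calls were marginal: Scd2 was the last of the 150 called genes by p and Me1 ranked 135, and of 15 alternative fits Scd2 was called in 6 and Me1 in 5. Each kept its direction in all 15. Acss2, which makes acetyl-CoA from acetate, had 0.347 and 0.213 FPKM in knockdown and 0.668 and 0.662 FPKM in control libraries, with a log2 fold change of -1.19 ± 0.28 (SE, adjusted p = 0.134 by edgeR). Over the 13 genes the median was 0.02.

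The list of enzymes, receptors and regulators beside the 28 had 20 tested genes, none of which passed in edgeR. At an unadjusted p of 0.05, 3 were lower and 2 higher, against 6.70% and 7.52% of all tested genes. The median was -0.06. Lrp1, an endocytic receptor for ApoE-bearing lipoproteins, had 14.1 and 12.9 FPKM in knockdown and 10.3 and 10.2 FPKM in control libraries. Here the knockdown libraries were the higher, and its log2 fold change was 0.43 ± 0.07 (SE, adjusted p = 0.0656 by edgeR). Erg28, a scaffold of the C4 demethylation enzymes, had 16.3 and 15.1 FPKM against 21.1 and 20.4 FPKM, with -0.37 ± 0.08 (SE). Tmem97, an abundant sterol-responsive protein at 143 and 142 FPKM in knockdown and 139 and 147 FPKM in control libraries, had 0.03 ± 0.07.

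Of the sterol sensing, efflux and oxysterol genes, 21 were tested and none passed, with a median of -0.08. At an unadjusted p of 0.05, 3 were lower and 1 higher, against 6.70% and 7.52% of all tested genes. Abca1, the cholesterol exporter induced by LXR, had 1.31 and 1.30 FPKM in knockdown and 1.98 and 1.99 FPKM in control libraries. Replicates were close and the groups apart, with a log2 fold change of -0.57 ± 0.12 (SE, adjusted p = 0.101 by edgeR). Apoe, the most abundant gene of the list, had 234 and 183 FPKM in knockdown and 246 and 299 FPKM in control libraries, with -0.35 ± 0.15 (SE). Its value was -0.19 without knockdown replicate 2, -0.21 without control replicate 2 and -0.54 without knockdown replicate 1. Scarb1, a lipoprotein receptor, had 0.31 ± 0.08 and Lpcat3, a phospholipid acyltransferase induced by LXR, -0.31 ± 0.09. Ch25h, chosen after its values were seen, which makes the oxysterol 25-hydroxycholesterol in LPS-treated macrophages, had a count of 0 in 3 libraries and 7 counts in control replicate 1, under the floor of 12 counts. Of 12 genes of the isoprenoid branch, which uses farnesyl diphosphate for other products, none passed. An unadjusted p of 0.05 was reached by 1 of them, against 14.2% of all tested genes in either direction. That gene was Rabggtb, a Rab prenylation subunit, with 0.24 ± 0.09 (SE). Cox10 had 0.13 ± 0.09 and Nus1, the most abundant, -0.02 ± 0.08, and the list's median was 0.01. DESeq2 called 7 genes over these 4 lists, where it called 5.09% of all genes, and limma-voom called 0, where it called 65 among all genes.

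**Figure D4:**
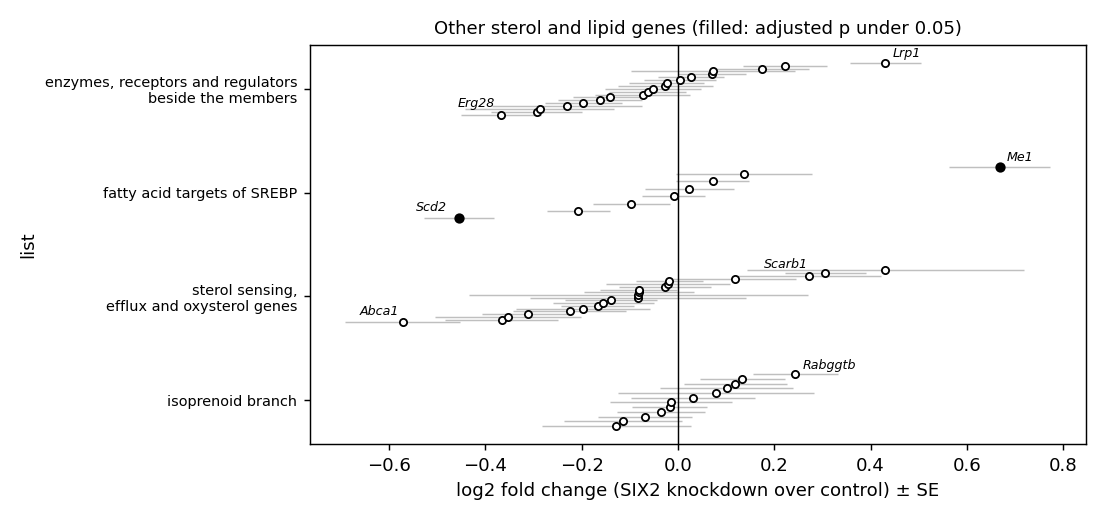
log2 fold change (SIX2 knockdown over control) with SE of the 59 tested genes of the 4 further lists with a mean of at least 0.5 FPKM; another 7 tested genes were lower and are not drawn. Filled points mark the genes that passed an adjusted p of 0.05, Scd2 at -0.45 and Me1 at 0.67; the isoprenoid branch stays within -0.13 to 0.24.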

How the data were processed

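Libraries were grouped by the genotype label. The deposited estimated counts are whole numbers per gene, not normalised by the authors, and were already whole, so rounding changed nothing. FPKM values (unit per the file headers) came scaled for gene length and depth by the authors. Bowtie 0.12.2 and build mm8 are named per the submitters' processing notes; no source used here names the counting program. Despite that build, gene coordinates equalled those of GENCODE M21 (GRCm38) for 89.6% of genes, among them 25 of the 28 members, and coordinates are given on that build. Low counts peaked at multiples of 4, so the floor was taken as 3 fragments, or 12 counts, for counting error only. Another 12 columns that match no labelled sample were not used.

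edgeR 4.0.16 (in R 4.3.3) was run on these counts with filterByExpr by group, TMM factors and a robust quasi-likelihood F test (two-sided, no covariates). P-values were adjusted by Benjamini-Hochberg over the 15733 genes kept, at a threshold of 0.05. The standard error is the fold change over the root of F. Replicates differed by more than counting error (chi-square per degree of freedom 16.9 in knockdown and 16.2 in control libraries, in fragments). Alternatives used DESeq2 1.42.0, limma 3.58.1 on voom or log2(FPKM + 1 or 0.1) values, other scalings and filters, counts divided by 4, and left-out libraries. The fit was tested on simulated data. The members, lists and tests were chosen with earlier results of these data known. All members are named, with values per library for those at an unadjusted p under 0.05 and those with the highest level, lowest level or largest fold change of a group; other lists give the 3 genes with the lowest p and the most abundant one. Some genes that this rule takes are not reported here.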

Additional observations from a re-analysis of the deposited data

How the results depend on the processing

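The number of genes changed among all tested, 150 by edgeR, was 801 by DESeq2, 297 with no filter on low counts, 65 by limma-voom, 7 without the robust option and 3 by limma on log2 FPKM with either pseudocount (1 or 0.1), and 41 to 112 when 1 library was left out. For the 28 cholesterol genes, 0 by edgeR, the count was 2 by DESeq2 (Mvd, adjusted p = 0.000905, and Pmvk, 0.00574), 1 with no filter (Mvd, adjusted p = 0.0389 by edgeR) and 0 with any library left out. Of the 71 further genes, 2 by edgeR, the count was 7 by DESeq2, 1 with library totals alone (no TMM), and 0 by limma-voom, by limma on FPKM, without the robust option and with any library left out. The replicate block left 0 genes changed, 0 of the 28 and 0 of the 71. Same-numbered libraries, which the labels link only by number, did not deviate together (r = 0.0358 over 12780 genes). Whether they shared a culture or batch is not stated. The causes were not tested.

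The mevalonate median, -0.17, was -0.21 with library totals, -0.20 and -0.21 by limma on FPKM with pseudocounts 1 and 0.1, and -0.23 to -0.17 with 1 library left out. The later sterol median, -0.08, was -0.11, -0.10 and -0.11 under the same settings and -0.094 to -0.031 with 1 library left out. Of the 28 genes, 15 kept their sign in every alternative and 13 did not. With 1 library left out the log2 fold changes spanned -0.25 to 0.11 for Acat2, -0.063 to 0.21 for Idi1, -0.10 to 0.13 for Ggps1, -0.020 to 0.13 for Sqle, -0.0074 to 0.10 for Cyp51, -0.53 to 0.18 for Tm7sf2, -0.083 to 0.072 for Hsd17b7, -0.00094 to 0.099 for Ebp, -0.15 to 0.0041 for Sc5d, -0.27 to 0.20 for Srebf2, -0.13 to 0.0062 for Insig1, -0.015 to 0.22 for Stard4 and -0.076 to 0.13 for Npc1. Outside the 28 they spanned -0.0073 to 0.063 for Tmem97, -0.066 to 0.035 for Nus1 and -0.10 to 0.20 for Mmab. The sign also turned with library totals for Ggps1 (-0.022), Npc1 (-0.012) and Tmem97 (-0.0063); by limma on FPKM with pseudocounts 1 and 0.1 for Ggps1 (-0.017 and -0.019), Npc1 (-0.0089 and -0.0099) and Tmem97 (-0.0072 and -0.0073); and for Ggps1 with a mean CPM of at least 1 (-0.0055) and with counts divided by 4 (-0.0041).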
